A study of Mus musculus with 20 samples.

Results

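The enzymes described here make ceramide, the lipid from which all other sphingolipids are built, in the livers of C57BL/6NTac mice. They are 9 genes picked by symbol from the 32400 genes of the deposited table: Sptlc1, Sptlc2, Sptlc3 and Sptssa, which encode subunits of serine palmitoyltransferase, the ceramide synthases Cers2, Cers4, Cers5 and Cers6, and the dihydroceramide desaturase Degs1. All 9 were found and all 9 passed the filter on low counts over the 3 groups, Sptlc3 through the Flcn gRNA libraries alone. Because the symbols were picked with measured values of these libraries known, the levels and fold changes of the 9 genes are given as a description, without a test. RNA from whole liver was sequenced in 20 libraries of 3 groups. Of these, 5 libraries came from untreated mice kept on chow ("chow control"), and 7 came from mice fed a diet rich in fat and fructose (HFHF) after receiving phosphate-buffered saline as vehicle ("HFHF control"). The other 8 libraries came from mice on the HFHF diet that had been given a guide RNA (gRNA) against Flcn in an adeno-associated virus of serotype 8 ("Flcn gRNA"). Flcn encodes folliculin, which acts with its FNIP partners on the Rag GTPases and through them governs how mTORC1 restrains the transcription factors TFEB and TFE3. All animals share the strain, and none of the groups analysed here received the virus without the Flcn guide, so the virus and the guide cannot be told apart. The chow controls were untreated while the HFHF controls received vehicle, so diet and vehicle cannot be told apart either. Below, "on the diet" stands for the comparison of HFHF control with chow control, vehicle included. Not given in the sources used here were the age and sex of the mice, the nuclease, its promoter and the position of the guide. The labels do not say whether each library is a separate animal, so any error below is the spread between libraries.

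Sphingolipid synthesis starts in the endoplasmic reticulum, where serine palmitoyltransferase joins serine to palmitoyl-CoA. The enzyme needs the subunit SPTLC1 together with SPTLC2 or SPTLC3, which carry the catalytic lysine, and a small subunit such as SPTSSA that raises its activity; the ORMDL proteins hold the enzyme back. KDSR reduces the product to sphinganine, a ceramide synthase adds a fatty acid of a length that depends on the synthase, and DEGS1 introduces the double bond that turns dihydroceramide into ceramide. In liver, CERS2 makes the very long chain ceramides, while CERS5 and CERS6 make those with palmitate.

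Total counts per library were 14131976 to 16285324 in the chow controls, 15244760 to 18194089 in the HFHF controls and 13974379 to 19586576 in the Flcn gRNA group. Levels are given in CPM, the count of a gene scaled to a common library size, and levels of different genes are compared only per kilobase of transcript. A gene was called when its adjusted p in edgeR's quasi-likelihood test, over 13667 genes, was under 0.05. The targeted gene itself was at 22.2 ± 6.03 CPM (SD, n = 5) in the chow controls, 20.7 ± 2.98 CPM (SD, n = 7) in the HFHF controls and 17.8 ± 2.40 CPM (SD, n = 8) in the Flcn gRNA group. Flcn had a log2 fold change of -0.22 (95% interval -0.47 to 0.02) between the Flcn gRNA group and the HFHF controls (edgeR, adjusted p = 0.14) and of -0.32 against chow (adjusted p = 0.04995, and 0.0529 by DESeq2), so its level does not check those labels. Upper-quartile scaling moved the share of higher genes among those called from 50.7% to 37.8% for Flcn gRNA against HFHF control, and from 49.4% to 60.7% for HFHF control against chow control. The liver label fits the 8 hepatocyte markers, which were detected in every library, with a summed level of 43463 CPM or more.

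The large subunit Sptlc3 separated the Flcn gRNA libraries from all others. Sptlc3 (ENSMUSG00000039092, chr2:139493913-139637674, plus strand, GRCm38) encodes the alternative catalytic subunit, which widens the range of acyl-CoAs that the enzyme accepts. In the chow controls it had 0 counts in replicates 1 to 4 and 1 count, or 0.0778 CPM, in replicate 5; a count of 0 still allows 3 counts, or 0.199 to 0.227 CPM in these 4 libraries. The 7 HFHF controls were at 0.0561, 1.89, 0.259, 0.202, 0.670, 0.213 and 0.567 CPM. The 8 Flcn gRNA libraries were at 11.5, 9.72, 11.6, 9.52, 8.17, 33.1, 5.99 and 6.67 CPM. Every Flcn gRNA library thus lay above every HFHF control, whereas the HFHF controls overlapped the chow controls, and replicate 6 of the Flcn gRNA group stood far above the other 7.

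Group means of Sptlc3 were 0.0156 ± 0.0348 CPM (SD, n = 5) in chow, 0.551 ± 0.629 CPM (SD, n = 7) in HFHF control and 12.0 ± 8.76 CPM (SD, n = 8) in Flcn gRNA. The fitted log2 fold change of Flcn gRNA against HFHF control was 4.49 (SE 0.50, 95% interval 3.44 to 5.54). It came to 4.06 without Flcn gRNA replicate 6 and to 5.18 without HFHF control replicate 2, the highest library of its group. Without replicate 6 the Flcn gRNA mean was 9.03 ± 2.21 CPM (SD, n = 7), and without replicate 2 the HFHF control mean was 0.328 ± 0.238 CPM (SD, n = 6). Because the chow controls held 1 count in all, the comparison with chow is given as a ratio of summed counts per depth: HFHF control over chow was 35.8 (exact Clopper-Pearson 95% interval 6.22 to 1436), from 68 counts against 1. The same ratio for Flcn gRNA over HFHF control was 24.05 (18.9 to 31.1), from 1639 counts against 68. These intervals cover counting error only. The antisense gene Gm14066 spans part of Sptlc3 and had 0 counts in every library.

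Sptlc2 (chr12:87305058-87388355, minus strand), the common catalytic subunit, was higher in both HFHF groups than in chow. Chow controls were at 19.8, 21.04, 18.2, 22.4 and 18.6 CPM. HFHF controls were at 40.5, 37.9, 39.5, 37.6, 36.03, 43.9 and 40.5 CPM. Flcn gRNA libraries were at 26.8, 36.2, 34.5, 42.3, 31.2, 42.4, 43.3 and 39.7 CPM. Both HFHF groups lay wholly above chow and overlapped each other; Flcn gRNA replicates 1, 3 and 5 were below all 7 HFHF controls. The mean of 39.4 ± 2.56 CPM (SD, n = 7) in HFHF controls was 1.97 times the chow mean of 20.002 ± 1.76 CPM (SD, n = 5). The log2 fold change of Flcn gRNA against HFHF control was -0.09 (95% interval -0.26 to 0.09), around a mean of 37.1 ± 5.94 CPM (SD, n = 8).

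Sptlc1 (chr13:53332748-53377397, minus strand), the subunit common to both forms of the enzyme, varied little. Chow controls were at 22.4, 21.2, 20.8, 21.1 and 27.1 CPM, against 23.7 to 29.3 CPM in HFHF controls and 22.6 to 28.4 CPM in Flcn gRNA libraries. All 3 groups overlapped through chow replicate 5, without which the chow mean was 21.4 ± 0.679 CPM (SD, n = 4) in place of 22.5 ± 2.62 CPM (SD, n = 5). The HFHF control mean was 27.0 ± 2.18 CPM (SD, n = 7) and the Flcn gRNA mean 25.4 ± 2.31 CPM (SD, n = 8). Its log2 fold change was 0.26 (SE 0.08) for HFHF control against chow and -0.09 (SE 0.07) for Flcn gRNA against HFHF control.

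Sptssa (chr12:54645392-54656573, minus strand), the small activating subunit, had the narrowest spread of group means among the 7 of these enzymes with a mean level of at least 5 CPM. It was at 27.7 to 36.1 CPM in chow, 32.1 to 36.1 CPM in HFHF controls and 30.6 to 37.6 CPM in Flcn gRNA libraries. The log2 fold change of Flcn gRNA against HFHF control was 0.00 (95% interval -0.13 to 0.12). The other small subunit gene, Sptssb, had 1 count in chow, 0 in HFHF controls and 1 in Flcn gRNA libraries.

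**Figure D1:**
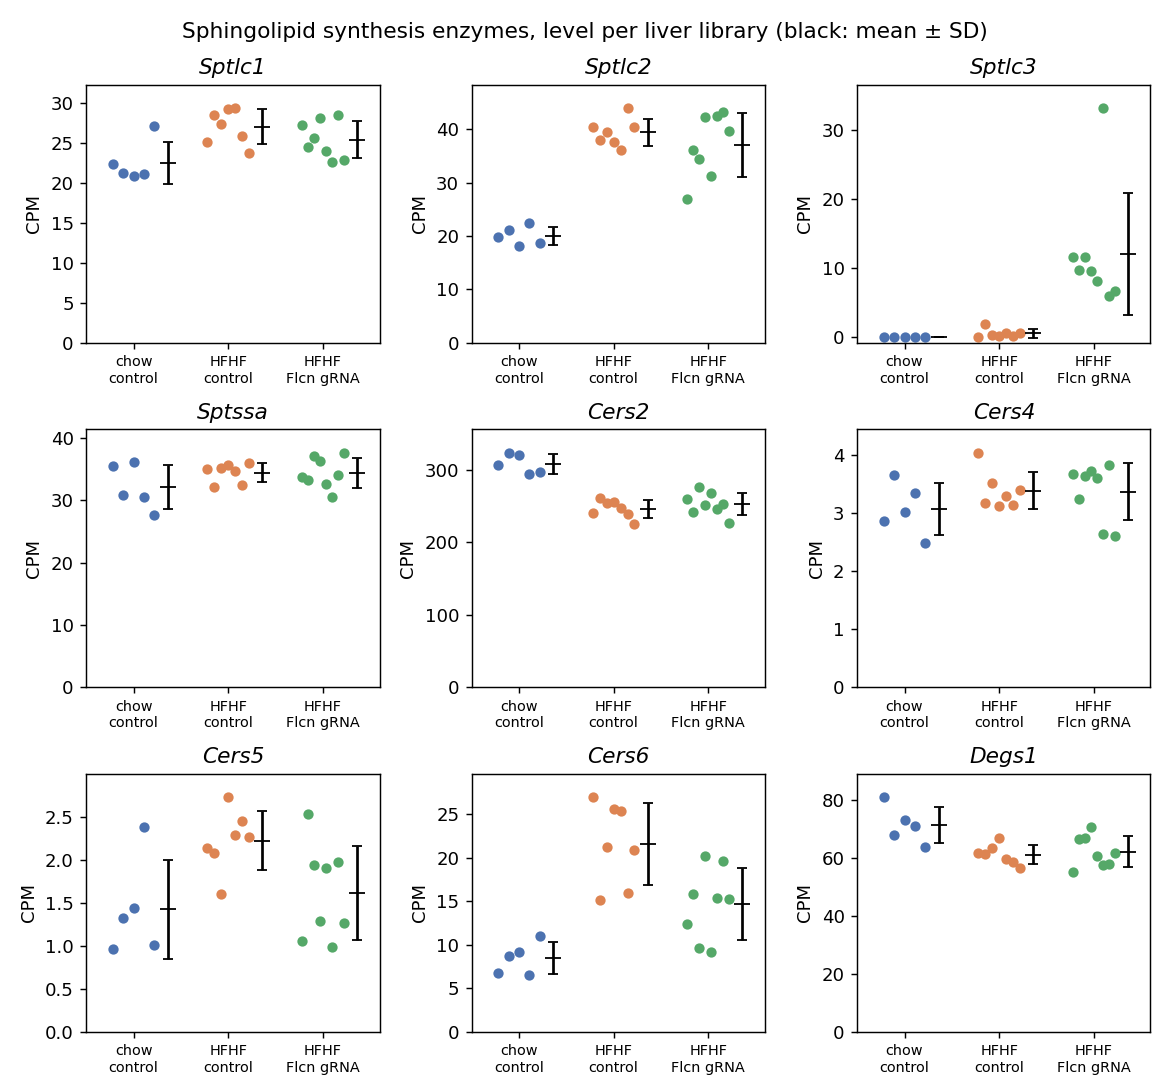
Level of each of the 9 enzymes in CPM in each of the 20 liver libraries, with replicates in order from left to right and the group mean ± SD in black. Sptlc3 is at 5.99 CPM or more in the Flcn gRNA libraries alone, Sptlc2 and Cers6 are higher in both HFHF groups than in chow by their means, and Cers2 is lower.

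The 250 bases before the annotated start are shown for Sptlc3, whose level set the Flcn gRNA libraries apart, and for Sptlc2 and Cers6, which after Sptlc3 had the widest spread of group means. They come from RefSeq (GRCm38.p6), in which all 9 members were matched by symbol. Capitals mark CACGTG, the E-box core that basic helix-loop-helix factors, TFEB and TFE3 among them, can bind. The windows are chr2:139493663-139493912 on the plus strand for Sptlc3, chr12:87388356-87388605 on the minus strand for Sptlc2 and chr2:68861191-68861440 on the plus strand for Cers6, each written 5′ to 3′.
Sptlc3: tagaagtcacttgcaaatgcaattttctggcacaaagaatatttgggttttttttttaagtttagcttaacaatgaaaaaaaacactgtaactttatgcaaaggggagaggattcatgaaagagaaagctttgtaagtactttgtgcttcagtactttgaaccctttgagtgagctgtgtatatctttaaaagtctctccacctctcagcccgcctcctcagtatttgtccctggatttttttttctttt
Sptlc2: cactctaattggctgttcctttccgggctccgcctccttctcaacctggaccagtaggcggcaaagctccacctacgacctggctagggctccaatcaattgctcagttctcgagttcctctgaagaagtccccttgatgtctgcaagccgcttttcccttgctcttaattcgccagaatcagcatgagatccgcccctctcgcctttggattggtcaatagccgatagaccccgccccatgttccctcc
Cers6: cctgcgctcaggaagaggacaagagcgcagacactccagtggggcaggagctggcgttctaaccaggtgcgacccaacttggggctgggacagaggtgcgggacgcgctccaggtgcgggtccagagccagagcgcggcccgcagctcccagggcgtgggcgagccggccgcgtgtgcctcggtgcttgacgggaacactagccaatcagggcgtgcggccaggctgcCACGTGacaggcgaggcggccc
Of these, the Cers6 window holds the E-box core, 22 bases before the start. Over all 9 members, 3 have it (Cers2, Cers6 and Degs1), against 6.02% of all 32851 RefSeq windows of 250 bases. CCAAT, searched on both strands like the others, is in a window of 5 of 9 members (33.8% of all windows), GGGCGG in 6 of 9 (32.7%), and TATAAA in 0 of 9 (12.4%). The Sptlc3 window holds none of these 4 motifs and has a GC content of 35.6%, where the other 9 member windows (Cers2 has a pair) range from 54% to 74.8% and the median of all windows is 52.4%. A match is a run of letters, not a bound site.

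Per kilobase of transcript, Sptlc3 went from a trace to a large part of the catalytic subunits in the Flcn gRNA group. Its share of the summed Sptlc2 and Sptlc3 level per kilobase was 0.201 ± 0.450% (SD, n = 5) in chow, 3.26 ± 3.60% (SD, n = 7) in HFHF controls and 41.2 ± 12.8% (SD, n = 8) in Flcn gRNA libraries. The HFHF controls ranged from 0.336% to 10.8% and the Flcn gRNA libraries from 25.2% to 65.5%, without overlap. In replicates 1 and 6 of the Flcn gRNA group Sptlc3 was the more abundant of the pair per kilobase, at 51.1% and 65.5%. Without replicate 6 the share was 37.7 ± 8.91% (SD, n = 7). HFHF control replicate 2 was the library at 10.8%, and without it the HFHF control share was 1.998 ± 1.50% (SD, n = 6).

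The sum of both catalytic subunits was lowest in chow and highest in the Flcn gRNA group, going from 2.99 ± 0.257 CPM per kilobase (SD, n = 5) in chow to 6.07 ± 0.361 (SD, n = 7) in HFHF controls and 9.89 ± 3.47 (SD, n = 8) in Flcn gRNA libraries. The lowest Flcn gRNA library, at 7.62 CPM per kilobase, was above the highest HFHF control, at 6.62. Set against Sptlc1 per kilobase, the sum was 0.350 ± 0.0544 (SD, n = 5), 0.591 ± 0.0733 (SD, n = 7) and 1.03 ± 0.441 (SD, n = 8) in the same order. Without replicate 6 the last ratio was 0.880 ± 0.0773 (SD, n = 7), and replicate 6 was at 2.11. These are ratios of RNA, and the protein complexes were not measured.

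**Figure D2:**
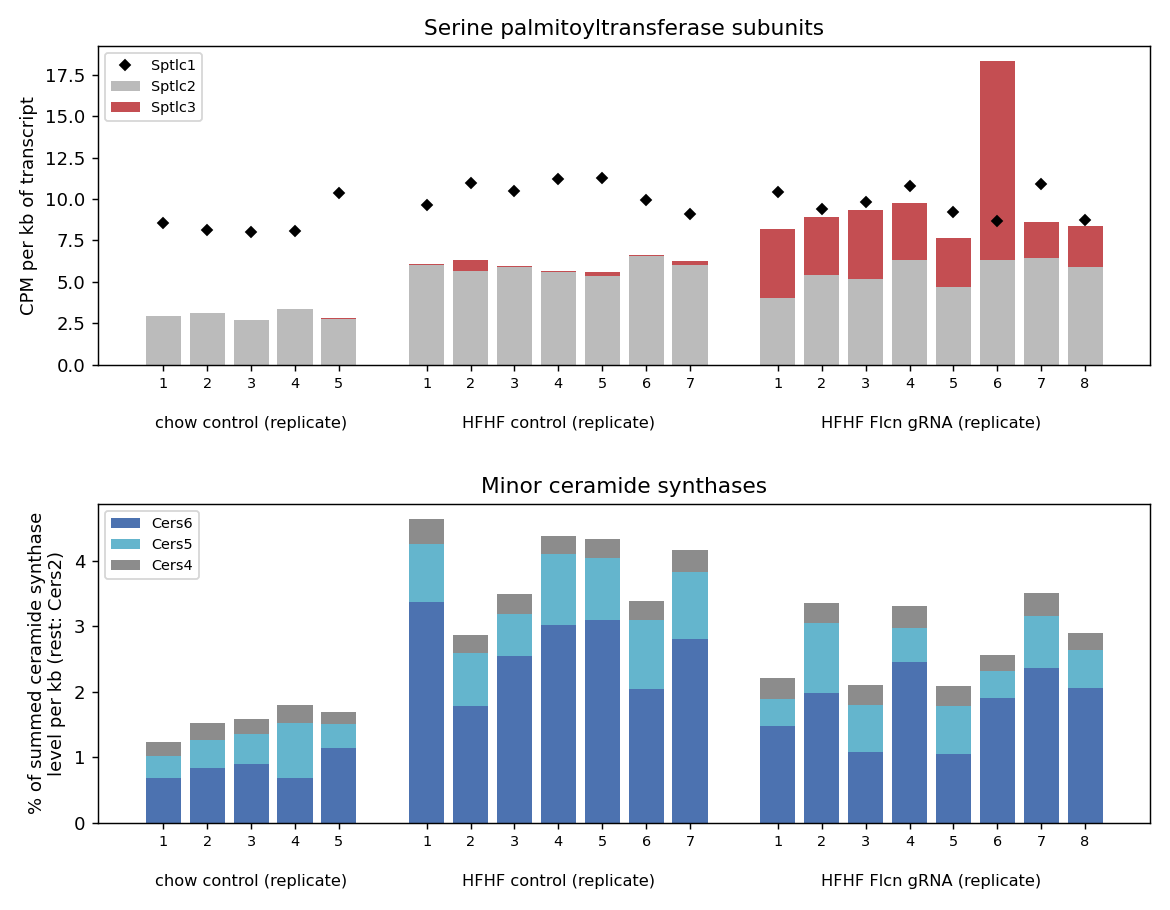
Top, stacked bars of Sptlc2 and Sptlc3 and diamonds of Sptlc1, in CPM per kilobase of transcript for each library; bottom, Cers6, Cers5 and Cers4 as percent of the summed level per kilobase of the 4 ceramide synthases, the rest being Cers2. Sptlc3 makes up 25.2% to 65.5% of the catalytic pair in the Flcn gRNA libraries, and Cers2 makes up at least 95.4% of the ceramide synthase sum in every library.

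Cers6 (chr2:68861441-69114282, plus strand), which makes palmitate-containing ceramides, was highest in the HFHF controls and in between in the Flcn gRNA group. Chow controls were at 6.77, 8.69, 9.23, 6.54 and 11.0 CPM. HFHF controls were at 27.0, 15.1, 21.3, 25.6, 25.4, 16.005 and 20.9 CPM. Flcn gRNA libraries were at 12.4, 15.8, 9.62, 20.3, 9.12, 15.4, 19.7 and 15.3 CPM. The HFHF controls lay wholly above chow, and the Flcn gRNA libraries overlapped both. Means were 8.44 ± 1.84 CPM (SD, n = 5), 21.6 ± 4.70 CPM (SD, n = 7) and 14.7 ± 4.14 CPM (SD, n = 8). The log2 fold change was 1.36 (SE 0.21) for HFHF control against chow and -0.56 (SE 0.17, 95% interval -0.91 to -0.20) for Flcn gRNA against HFHF control. Leaving out each library in turn kept the latter between -0.63 and -0.49.

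Cers2 (chr3:95314791-95323599, plus strand), the synthase of very long chain ceramides, was the most abundant of the 9 per kilobase in every group and lower on the HFHF diet. Chow controls were at 307, 323, 321, 294 and 296 CPM, all above the HFHF controls at 225 to 261 CPM and the Flcn gRNA libraries at 227 to 276 CPM. The log2 fold change was -0.33 (SE 0.06) for HFHF control against chow and 0.04 (95% interval -0.07 to 0.15) for Flcn gRNA against HFHF control, the latter being -0.02 with upper-quartile scaling. Setdb1 and 6330562C20Rik overlap Cers2 on the other strand; Setdb1 was at 29.2 ± 1.86 CPM (SD, n = 5) in chow and 18.1 ± 1.21 CPM (SD, n = 7) in HFHF controls. Without a record of strand use in counting, reads of overlapping genes cannot be told apart.

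The 2 remaining synthases were low. Cers5 (chr15:99734881-99772885, minus strand), also a synthase of palmitate-containing ceramides, had means of 1.42 ± 0.571 CPM (SD, n = 5) in chow, 2.22 ± 0.347 CPM (SD, n = 7) in HFHF controls and 1.61 ± 0.547 CPM (SD, n = 8) in Flcn gRNA libraries, and all 3 groups overlapped. Its log2 fold changes of 0.64 (SE 0.25) on the diet and -0.45 (SE 0.21) with the guide had the same signs as those of Cers6. Cers4 (chr8:4493026-4531680, plus strand) was at 2.49 to 4.04 CPM over all 20 libraries, with a log2 fold change of -0.01 (SE 0.11) for Flcn gRNA against HFHF control.

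Per kilobase, Cers2 made up 98.4 ± 0.214% (SD, n = 5) of the ceramide synthase sum in chow, 96.1 ± 0.646% (SD, n = 7) in HFHF controls and 97.2 ± 0.590% (SD, n = 8) in Flcn gRNA libraries. The Cers6 share was 0.849 ± 0.189% (SD, n = 5), 2.66 ± 0.581% (SD, n = 7) and 1.80 ± 0.542% (SD, n = 8). The Cers2 to Cers6 ratio per kilobase was therefore 120 ± 24.3 (SD, n = 5) in chow, 37.9 ± 9.70 (SD, n = 7) in HFHF controls and 59.7 ± 21.6 (SD, n = 8) in Flcn gRNA libraries. The HFHF controls, at 28.3 to 54.7, lay wholly below chow, at 85.8 to 144, and the Flcn gRNA libraries, at 39.5 to 93.3, overlapped both.

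Degs1 (chr1:182275772-182282804, minus strand), the desaturase of the last step, was at 80.8, 68.0, 73.0, 70.9 and 63.8 CPM in chow. It was at 56.4 to 67.0 CPM in HFHF controls and 54.96 to 70.6 CPM in Flcn gRNA libraries, so that all 3 groups overlapped. The log2 fold change was -0.22 (SE 0.07) for HFHF control against chow and 0.02 (SE 0.06) for Flcn gRNA against HFHF control. With upper-quartile scaling the former was -0.13, which was not called, and the latter -0.03. Its homologue Degs2 was below the filter on low counts, with 1 count in chow, 14 in HFHF controls and 5 in Flcn gRNA libraries.

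The 3 comparisons differed in which of the 9 enzymes passed the threshold over all genes. Of the 9, 2 were called for Flcn gRNA against HFHF control (Sptlc3 higher, Cers6 lower), where 38.6% of all genes were called, 19.6% higher and 19% lower, and their median log2 fold change was -0.01 against 0.01 over all genes. Against chow, 7 of 9 were called in the HFHF controls (Sptlc1, Sptlc2, Sptlc3, Cers5 and Cers6 higher, Cers2 and Degs1 lower), where 57% of all genes were called, 28.1% higher and 28.9% lower, with a median of 0.26 against -0.01. Sptlc3 is among these 7 because the Flcn gRNA libraries carried it past the filter; with the HFHF and chow controls alone, at 68 counts against 1, it was not tested and 6 were called. For Flcn gRNA against chow, 5 of 9 were called (Sptlc2, Sptlc3 and Cers6 higher, Cers2 and Degs1 lower) beside 42.6% of all genes, 20.9% higher and 21.7% lower, with a median of 0.17 against 0.00. Degs1 lost that call with upper-quartile scaling (-0.16), no low-count filter (-0.17) or the compared groups alone (-0.18). It also lost it without chow replicate 1 (-0.12), 3 or 4, or Flcn gRNA replicate 1 or 5. Sptlc1 gained a call there with upper-quartile scaling (0.21). It also gained one without chow replicate 5 (0.27), HFHF control replicate 5 or Flcn gRNA replicate 2, 5, 6 or 8. Since the genes were picked with these values known, nothing is read from these counts.

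Groups without overlap were found for Sptlc3 alone between Flcn gRNA and HFHF control (11% of all genes, 5.04% higher and 6.01% lower), and for Sptlc2, Cers6 and Cers2 between HFHF control and chow (37% of all genes, 18.8% higher and 18.1% lower). Between Flcn gRNA and chow they were found for Sptlc2, Sptlc3 and Cers2 (18% of all genes, 9.01% higher and 8.98% lower). The comparisons share libraries: the HFHF controls stand in both of the first pair, so a high or low HFHF control moves both in opposite directions. Without Flcn gRNA replicate 2, Cers5 was also called lower for Flcn gRNA against HFHF control, at -0.59. The 7 calls against chow became 5 without chow replicate 1, 2 or 5, 6 without HFHF control replicate 4 and 8 without chow replicate 3: Sptlc3 and Cers5 lost theirs without chow replicate 1, 2 or 5, Cers5 without HFHF control replicate 4 and Degs1 without chow replicate 1 (-0.14), while Sptssa gained one without chow replicate 1 or 3 (0.17 and 0.18).

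**Figure D3:**
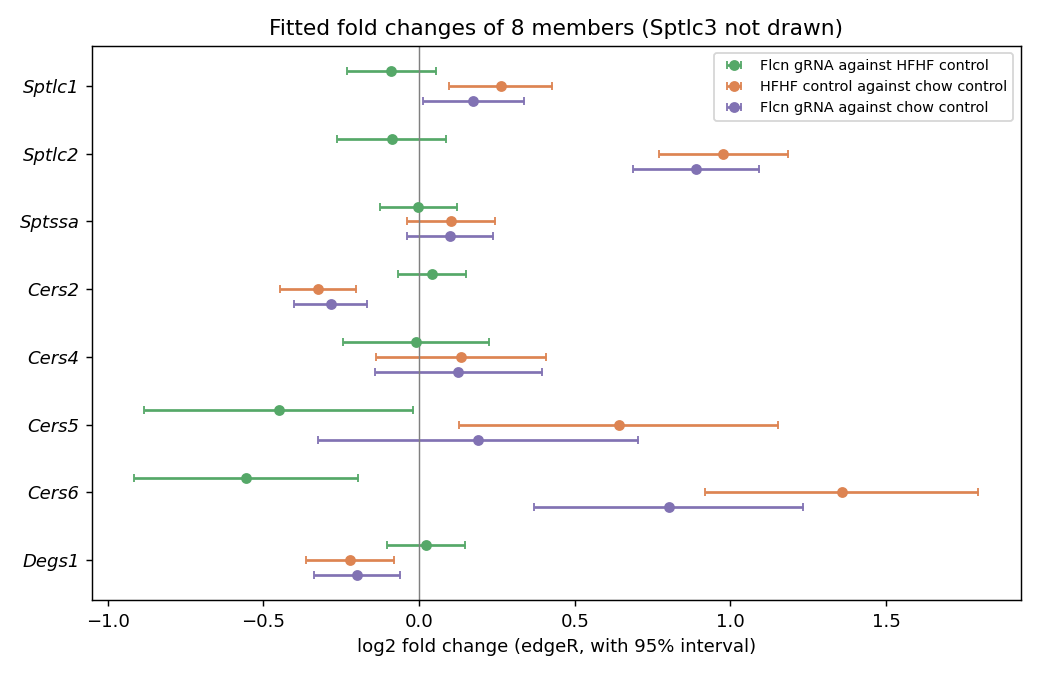
Fitted log2 fold changes (edgeR) of 8 of the 9 enzymes with 95% intervals, for the 3 comparisons; Sptlc3 is not drawn because chow held 1 count. The Flcn gRNA group differs little from the HFHF controls for Sptlc1, Sptlc2, Sptssa, Cers2, Cers4 and Degs1, with values between -0.09 and 0.04, while Cers6 lies at -0.56 there and at 1.36 for HFHF control against chow.

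Within groups, the 9 enzymes showed no shared ranking of libraries that held up. Over 72 pairs in the 8 Flcn gRNA libraries and the 7 HFHF controls, 0 passed the Benjamini-Hochberg adjustment (smallest adjusted exact permutation p = 0.398 for Pearson's r and 0.0821 for Spearman's rho), and 6 had an unadjusted exact permutation p under 0.05. Flcn gRNA replicate 6, the highest for Sptlc3, was within the range of its group in Sptlc2 at 42.4 CPM and was the lowest of its group in Sptlc1 at 22.6 CPM, Sptssa at 30.6 CPM and Cers5 at 0.982 CPM.

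The genes whose profile over the 20 libraries came nearest to that of Sptlc3, by root mean square difference of centred log2 CPM, were Cfd (0.92), Anxa8 (1.03), Fabp3 (1.07), Cyp46a1 (1.12) and Mmp27 (1.19), out of 9276 genes compared. All 5 were highest in the Flcn gRNA group, as the measure requires. Cfd, which encodes the complement protease factor D, was at 0.163 ± 0.103 CPM (SD, n = 5) in chow, 2.09 ± 2.07 CPM (SD, n = 7) in HFHF controls and 14.5 ± 9.42 CPM (SD, n = 8) in Flcn gRNA libraries. It was the one of the 5 whose highest libraries in both HFHF groups, Flcn gRNA replicate 6 at 35.3 CPM and HFHF control replicate 2 at 6.35 CPM, were also the highest for Sptlc3; Mmp27 was highest in Flcn gRNA replicate 6 too, at 224 CPM. Fabp3, a fatty acid binding protein, was by contrast even within the group, at 37.8 ± 4.70 CPM (SD, n = 8). Cfd is known from fat tissue. The fat cell genes Adipoq, Lep and Retn, looked up after Cfd had been seen, had 0 counts in all 8 Flcn gRNA libraries, and Plin1 had 3 counts over these libraries. The part of fat tissue in the levels of Cfd and Sptlc3 was not tested.

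**Figure D4:**
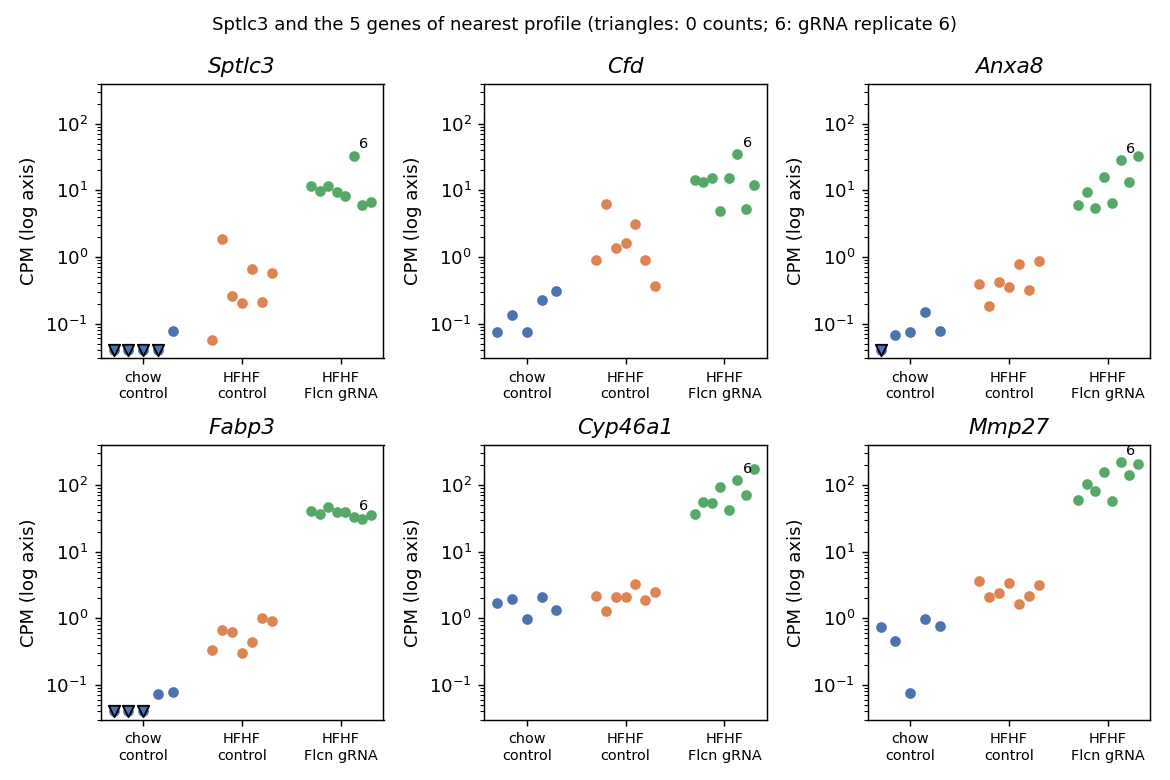
Level of Sptlc3 and of the 5 genes of nearest profile in each library, in CPM on a log axis; triangles at the lower edge stand for 0 counts, and the number 6 marks Flcn gRNA replicate 6. The Flcn gRNA libraries lie above both other groups in Sptlc3, at 5.99 to 33.1 CPM, and replicate 6 is the highest in Sptlc3, Cfd and Mmp27.

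Among the other genes of ceramide synthesis and its control, the negative regulator Ormdl1 rose in the Flcn gRNA group and fell on the diet. Of 8 such genes, 4 passed the filter (Kdsr, Ormdl1, Ormdl2 and Ormdl3), while Sptssb, Cers1, Cers3 and Degs2 did not. These genes, the pathway lists below and the marker lists were also chosen with earlier results of these data known. Their counts and p-values are therefore a description and not independent support. Of the 4, 1 was called for Flcn gRNA against HFHF control and 3 on the diet, beside 38.6% and 57% of all genes. Ormdl1 was at 25.6 ± 2.42 CPM (SD, n = 5) in chow, 17.2 ± 1.18 CPM (SD, n = 7) in HFHF controls and 26.6 ± 1.40 CPM (SD, n = 8) in Flcn gRNA libraries, with the HFHF controls wholly below both. Its log2 fold change was 0.63 (SE 0.06) for Flcn gRNA against HFHF control (edgeR, adjusted p = 6.45e-08) and -0.57 (SE 0.07) for HFHF control against chow (adjusted p = 2.52e-07). A readthrough gene, Gm28778, overlaps Ormdl1. Ormdl2 fell on the diet (-0.37, edgeR adjusted p = 0.000277), and its value of 0.14 for Flcn gRNA against HFHF control was not called (adjusted p = 0.116). Ormdl3 was at 80.2 ± 10.1, 77.2 ± 9.40 and 81.4 ± 7.24 CPM in chow, HFHF control and Flcn gRNA (SD, n = 5, 7 and 8), with no call.

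Kdsr, the reductase of the step after serine palmitoyltransferase, rose on the diet by 0.77 on the log2 scale (SE 0.10, edgeR adjusted p = 7.24e-07), from 20.1 ± 2.76 CPM (SD, n = 5) to 34.5 ± 2.68 CPM (SD, n = 7). Flcn gRNA libraries were at 32.5 ± 4.43 CPM (SD, n = 8), a log2 fold change of -0.08 (adjusted p = 0.454). Kdsr thus had the pattern of Sptlc2, with both HFHF groups wholly above chow.

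Downstream of ceramide, 14 of 17 genes for ceramide transfer and complex sphingolipids passed the filter. For Flcn gRNA against HFHF control 3 rose, 3 fell and 8 were not called, so that 42.9% were called beside 38.6% of all genes, with a median of -0.03 against 0.01. Sgms2, a sphingomyelin synthase, rose by 0.67 on the log2 scale (edgeR, adjusted p = 5.32e-06), and Samd8, which makes a sphingomyelin analogue, by 0.50 (adjusted p = 0.000207). B4galt6, a lactosylceramide synthase, fell from 11.5 ± 3.11 CPM (SD, n = 7) to 3.40 ± 1.07 CPM (SD, n = 8), a log2 fold change of -1.76 (edgeR, adjusted p = 4.62e-07), and the ganglioside enzyme B4galnt1 changed by -0.31 (adjusted p = 0.000596).

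On the diet 9 of these 14 rose, 2 fell and 3 were not called, so that 78.6% were called beside 57% of all genes (28.1% higher and 28.9% lower), with a median of 0.45 against -0.01. B4galt6 rose from 1.93 ± 0.381 CPM (SD, n = 5), a log2 fold change of 2.58 (edgeR, adjusted p = 2.56e-08), and B4galt5, the other lactosylceramide synthase, rose by 0.97 (adjusted p = 7.59e-08). Gal3st1, which makes sulfatide, rose by 3.27 (edgeR, adjusted p = 2.45e-07) from 0.339 ± 0.0752 CPM (SD, n = 5), and Sgms2 fell by 0.89 (adjusted p = 1.77e-07).

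Of the genes for sphingolipid breakdown, 21 of 22 passed the filter. For Flcn gRNA against HFHF control 9 rose, 1 fell and 11 were not called, so that 47.6% were called beside 38.6% of all genes, with a median of 0.11 against 0.01. Hexa, which encodes a lysosomal enzyme of ganglioside breakdown, rose by 0.61 on the log2 scale (edgeR, adjusted p = 2.37e-05). The sialidase Neu1 rose by 0.88 (edgeR, adjusted p = 1.18e-05) and the activator Gm2a by 0.48 (adjusted p = 4.27e-05). On the diet 9 rose, 2 fell and 10 were not called, so that 52.4% were called beside 57% of all genes, with a median of 0.21 against -0.01. Psap, the saposin precursor, rose by 0.86 (edgeR, adjusted p = 3.31e-08) and Hexa by 1.02 (adjusted p = 9.71e-08). Smpd3, the neutral sphingomyelinase, rose by 3.10 (edgeR, adjusted p = 1.37e-06), from 1.75 ± 0.716 CPM (SD, n = 5) to 15.2 ± 2.48 CPM (SD, n = 7).

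For sphingosine 1-phosphate, 10 of 14 genes passed the filter. For Flcn gRNA against HFHF control 5 rose, 1 fell and 4 were not called, 6 of 10 beside 38.6% of all genes, with a median of 0.24 against 0.01. Sgpl1, the lyase that ends the pathway, rose by 0.74 on the log2 scale (edgeR, adjusted p = 1.99e-07), and its plasma carrier Apom by 0.57 (adjusted p = 6.82e-05). The transporter Spns2 rose by 0.51 (edgeR, adjusted p = 0.000205) and the phosphatase Sgpp1 by 0.33 (adjusted p = 0.000712). On the diet 3 rose and 7 fell, 10 of 10 beside 57% of all genes, with a median of -0.49 against -0.01. Apom fell by 1.32 (edgeR, adjusted p = 2.06e-09), Spns2 by 0.77 (adjusted p = 2.53e-06) and Sgpl1 by 0.65 (adjusted p = 1.18e-06), while Aldh3a2, which oxidises the aldehyde that the lyase releases, rose by 1.26 (adjusted p = 5.55e-08).

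Against chow, the Flcn gRNA group showed 1 rise (Kdsr, 0.69) and 1 fall (Ormdl2, -0.23) among the 4 measured genes of synthesis and its control (edgeR, adjusted p = 6.36e-06 and 0.0154). The call of Ormdl2 was lost without Flcn gRNA replicate 3 (-0.18) and without chow replicate 4 (-0.17) or 5 (-0.18). Of the genes for complex sphingolipids 10 rose and 1 fell, of those for breakdown 13 rose and 1 fell, and of those for sphingosine 1-phosphate 3 rose and 4 fell, out of 14, 21 and 10 measured and beside 20.9% of all genes called higher and 21.7% lower. Hexa was higher in the Flcn gRNA group than in both others, at 1.63 on the log2 scale against chow (edgeR, adjusted p = 2.11e-10). Arsa, the sulfatase that degrades sulfatide, rose by 1.43 (adjusted p = 2.6e-08).

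**Figure D5:**
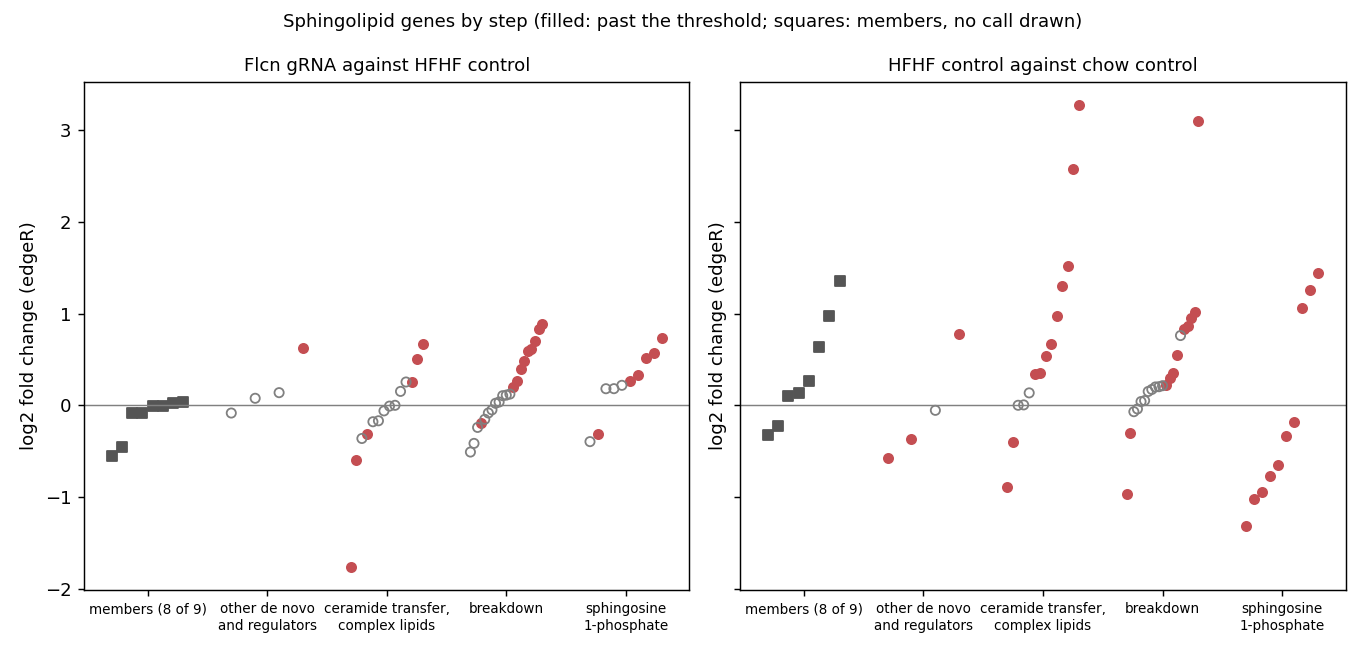
Fitted log2 fold changes (edgeR) of the sphingolipid genes by step, for Flcn gRNA against HFHF control (left) and HFHF control against chow (right); squares are 8 of the 9 enzymes described here, with Sptlc3 not drawn, filled circles are other genes with an adjusted p under 0.05 and open circles the rest. On the left the squares lie between -0.56 and 0.04 and B4galt6 at -1.76 is the lowest point; on the right Gal3st1 at 3.27 and Smpd3 at 3.10 are the highest.

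In whole liver, fewer cells of a type and less RNA per cell cannot be told apart, and markers of several cell types were called in the same comparisons, where 57% of all genes were called on the diet (28.1% higher, 28.9% lower) and 38.6% for Flcn gRNA against HFHF control (19.6% higher, 19% lower). The summed level of 8 stellate cell markers was 195 to 244 CPM in chow, 646 to 938 CPM in HFHF controls and 251 to 398 CPM in Flcn gRNA libraries, with 8 of 8 called higher on the diet and 6 of 8 called lower in the Flcn gRNA group. Of 8 markers of monocyte-derived macrophages, 8 were called higher on the diet and 7 lower in the Flcn gRNA group, with sums of 28.6 to 46.5, 151 to 371 and 85.0 to 216 CPM. The 5 cholangiocyte markers summed to 24.7 to 35.7, 93.0 to 227 and 30.5 to 80.5 CPM, with 3 of the 4 that passed the filter called higher on the diet and 4 of 4 lower in the Flcn gRNA group; Spp1 is in this list and in that of the macrophages. The 5 neutrophil markers summed to 4.12 to 6.54, 9.998 to 13.97 and 6.20 to 11.0 CPM, with 3 of the 4 that passed the filter called higher on the diet and 3 of 4 lower in the Flcn gRNA group. By their means these 4 lists were lowest in chow, in between in the Flcn gRNA group and highest in the HFHF controls. So was the Kupffer cell list, at 139, 227 and 240 CPM in chow, Flcn gRNA and HFHF control. Among others, Sptlc1, Sptlc2, Cers5, Cers6, Kdsr, B4galt5, B4galt6, Gal3st1, Smpd3 and Psap have this order of means. Sums of the Flcn gRNA libraries and the HFHF controls overlapped for macrophages and neutrophils and not for stellate cells and cholangiocytes. The part of these cell types in those results was not tested. The 8 hepatocyte markers summed to 73019 to 94563, 43463 to 64260 and 48321 to 79207 CPM. Of these markers, 7 were called lower on the diet, and 3 were called higher and 0 lower in the Flcn gRNA group against HFHF control. By its means this list has the order of Cers2, Degs1, Ormdl2, Sgms2, Apom and Spns2, and its part in those results was not tested. The sums of the Kupffer cell, sinusoidal endothelial cell and lymphocyte lists also overlapped between Flcn gRNA and HFHF control, and there 3 of 6 Kupffer cell markers were called higher and 1 lower, and 3 of 7 endothelial markers higher. Endothelial means of 189, 165 and 205 CPM in chow, HFHF control and Flcn gRNA have the order of Ormdl1, Sgpl1, Samd8, Sgpp1 and Gm2a. The part of endothelial cells in those results was not tested. By its group means the lymphocyte list had the order of Sptlc3, at 5.98 ± 0.640 CPM (SD, n = 5), 9.40 ± 3.25 CPM (SD, n = 7) and 10.04 ± 2.89 CPM (SD, n = 8). Of its 8 markers, 4 were called higher and 4 lower in the Flcn gRNA group. The ratio of Sptlc3 means between Flcn gRNA and HFHF control was 21.9, and the part of lymphocytes in the Sptlc3 result was not tested.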

How the data were processed

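The mRNA-seq libraries of liver RNA had adapters that carry molecular identifiers and were read for 51 cycles from one end, per the labels' protocols. The authors deposited estimated counts per Ensembl gene, and whole numbers made up 77.8% of the values from 1 upward. GRCm38 was the build per the submitters' processing notes; the aligner, the counter and how identifiers and strand were handled were not given in the sources used here. Counts were rounded; 22 construct features (7.0 counts in all) and 1 column that matched no sample label were left out, and 32325 of 32400 genes were matched to GENCODE M21 symbols.

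All 20 libraries entered 1 edgeR fit (4.0.16, R 4.3.3; filterByExpr, TMM, glmQLFit robust, glmQLFTest; 13667 genes, Benjamini-Hochberg threshold 0.05). Levels are CPM on TMM-scaled library sizes, divided for comparisons between genes by the length of the longest principal transcript. For the nearest profiles, log2 CPM used a prior count of 2 and genes with a mean of at least 5 CPM. The fit was run on simulated counts in which a small part of the genes changed, far fewer than were called here. That run therefore does not check the scaling. DESeq2 1.42.0, other scalings, no filter, the compared groups alone and each library left out were alternatives; the exon-union length was added after seeing the data.

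The 9 enzymes, the pathway lists and the marker lists were chosen with earlier results of these data known. The text names all 9 enzymes, from each of the 4 pathway lists and each comparison the up to 4 genes of smallest p past the threshold, all other genes of synthesis and its control, and the 5 genes nearest in profile to the enzyme with the widest spread of group means (mean of at least 5 CPM), which was Sptlc3 with a mean of 5.01 CPM; 1 gene that this rule names is not reported here. Replicate numbers follow accession order and pair nothing. Flcn gRNA replicate 8 carries another number in its title than the other libraries; as 1 library of 1 group it cannot be told apart from its group.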

Additional observations from a re-analysis of the deposited data

Results flagged for a closer look

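Of 120 groups of libraries examined, 6 held a library that stood apart from the rest of its group by Dixon's criterion, where chance gives about 1 in 20. Among the chow controls, replicate 5 was highest in Sptlc1 at 27.1 CPM, where the next was at 22.4 CPM, and it alone had a count of Sptlc3, at 0.0778 CPM. Among the HFHF controls, replicate 2 was highest in Sptlc3 at 1.89 CPM, from 31 counts, where the next was at 0.670 CPM. Among the Flcn gRNA libraries, replicate 6 was highest in Sptlc3 at 33.1 CPM, from 641 counts, where the next was at 11.6 CPM. The same library was highest in Cfd at 35.3 CPM, where the next was at 15.4 CPM. Replicate 7 of the Flcn gRNA group was lowest in Ormdl1 at 23.6 CPM, where the next was at 26.2 CPM.

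Outside the gene counts, the construct feature named PGK had 4 counts over the 8 Flcn gRNA libraries and 0 in the control libraries.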

How the results depend on the processing

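Over 99 results and their alternatives, 2271 of 2330 values kept their direction and their side of the threshold. For Flcn gRNA against HFHF control, upper-quartile scaling turned Cers2 to -0.0153 and Degs1 to -0.0335 on the log2 scale, and leaving out each library in turn gave ranges across 0 for Sptssa (-0.0302 to 0.0209), Cers4 (-0.0371 to 0.0380) and Degs1 (-0.00466 to 0.0459). For HFHF control against chow, Ormdl3 was at 0.0377 with upper-quartile scaling and at -0.0998 to 0.0289 with each library left out, and for Flcn gRNA against chow it was at -0.0119 to 0.0981. None of these was called in either fit. The other genes of synthesis and its control called for Flcn gRNA against chow numbered 1 with no low-count filter and 1 to 2 with each library left out, because Ormdl2 lost its call. With all annotated exons as length, the Cers6 share was 1.11%, 3.47% and 2.35% in chow, HFHF control and Flcn gRNA, and the Sptlc3 share 0.236%, 3.78% and 44.9%; here the length alone changed. With each library left out, genes called ranged from 4632 to 5330 for Flcn gRNA against HFHF control, from 7204 to 7867 for the diet and from 5152 to 5921 for Flcn gRNA against chow, and the 9 enzymes called from 2 to 3, 5 to 8 and 4 to 6. In the same order, 6 to 8, 11 to 12 and 10 to 11 genes were called for complex sphingolipids. For breakdown the ranges were 9 to 11, 10 to 14 and 14 to 16, and for sphingosine 1-phosphate 4 to 6, 8 to 10 and 5 to 7. With the compared groups alone, Sptlc3 did not pass the filter for HFHF control against chow. No paired analysis was possible because the replicate numbers only follow accession order. Depth limits the low genes: Cers4 rested on 32 to 72 counts per library, Cers5 on 13 to 54, and Sptlc3 on 1 to 31 counts per HFHF control.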
